A study of Mus musculus with 2 samples.

Results

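The genes described here are the core of the heat shock response outside the endoplasmic reticulum: cytosolic Hsp70 proteins with their partners, Hsp90, and the mitochondrial chaperonin. Of 10 genes chosen by name, 9 were measured by at least 1 probe set whose platform annotation names that gene alone. They were Hspa1a, Hspa1b, Hspa8, Hsph1, Dnajb1, Bag3, Hsp90aa1, Hspd1 and Hspe1. They stand among 22180 genes measured in this way. None of the 10 chosen genes was covered only by probe sets naming several genes. Hsp90ab1, the constitutive cytosolic Hsp90, was named by no probe set in the annotation used here and was not analysed.

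The study measured colon RNA of 7-week-old male mice of the outbred ICR stock on whole-transcript arrays. The psyllium group was fed a diet with 10% psyllium, a gel-forming seed-husk fibre, for 5 days. The control group was fed the diet without it. Each diet has 1 array, and neither the number of mice behind it nor the stretch of colon taken is stated in the labels. No difference below therefore has a standard error or a p-value, and each is a difference between these 2 arrays.

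Chaperones of the Hsp70 class hold unfolded stretches of protein in a cycle driven by ATP. J-domain proteins bring them clients, and nucleotide exchange factors release the clients again. Hsp90 acts later, on nearly folded kinases and receptors, and the barrel-shaped chaperonins enclose whole proteins. Heat shock factor 1 (Hsf1) binds repeats of a short element in the promoters of many of these genes when unfolded protein accumulates. In the colon, inducible heat shock proteins are found in surface epithelial cells.

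The element that Hsf1 binds is built of the unit GAA and its inverse TTC in alternation, with 2 bases between units, so that GAANNTTC and TTCNNGAA are runs of 2 units. RefSeq promoter windows of build GRCm38.p6, from 250 bases before to 50 after an annotated start, were searched for such runs. The pattern reads the same on both strands, and overlapping matches were joined into the longest run. Of the 10 genes, 7 had windows, 10 in all. Those without were Hspa8, Hsp90aa1 and Hsp90ab1. Runs of at least 2 units occurred in 7 of these 10 windows, of 6 genes, against 15.1% of all 32851 windows. Runs of at least 3 units occurred in 4 of the 10, of 3 genes, against 0.603% of all windows. These windows are not independent, since both Hsph1 windows share 279 bases and the Hspd1 and Hspe1 windows overlap. The genes were chosen as chaperones driven by Hsf1 and their partners, so a higher share of its element is built into that choice. Only units that match all their letters were counted. A match is a description of the letters and not a binding site. A short or missing run likewise does not show that a binding site is absent.

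The windows below hold runs of 2, 3 and 4 units, with the units of each run in capitals. Hspa1a and Hspa1b lie beside each other on chromosome 17, and their windows differed at 4 of 300 bases. Both hold the same run of 2 units, from base -104 to base -97 relative to the start. Hsph1 has a run of 2 units before its start and a run of 3 units just after it. Hspe1 has a run of 4 units, from base -89 to base -72.
Hspa1a, chr17:34972107-34972406, minus strand: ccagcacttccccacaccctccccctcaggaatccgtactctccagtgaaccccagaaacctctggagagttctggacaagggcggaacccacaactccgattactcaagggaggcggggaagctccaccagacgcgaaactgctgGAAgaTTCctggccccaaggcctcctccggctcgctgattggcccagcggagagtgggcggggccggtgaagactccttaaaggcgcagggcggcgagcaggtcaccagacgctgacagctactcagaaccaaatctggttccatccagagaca
Hspa1b, chr17:34959189-34959488, minus strand: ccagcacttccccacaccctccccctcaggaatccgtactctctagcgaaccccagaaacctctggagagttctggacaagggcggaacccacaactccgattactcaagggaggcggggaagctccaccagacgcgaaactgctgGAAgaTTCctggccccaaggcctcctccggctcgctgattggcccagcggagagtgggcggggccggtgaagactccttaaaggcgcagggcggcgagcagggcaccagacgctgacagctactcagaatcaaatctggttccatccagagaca
Hsph1, chr5:149636266-149636565, minus strand: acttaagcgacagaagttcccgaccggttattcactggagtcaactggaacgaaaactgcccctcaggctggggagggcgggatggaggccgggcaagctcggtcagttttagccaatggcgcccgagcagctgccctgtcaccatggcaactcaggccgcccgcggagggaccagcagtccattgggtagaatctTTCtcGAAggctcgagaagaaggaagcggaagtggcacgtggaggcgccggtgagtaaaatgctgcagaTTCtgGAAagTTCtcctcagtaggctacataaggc
Hspe1, chr1:55087898-55088197, plus strand: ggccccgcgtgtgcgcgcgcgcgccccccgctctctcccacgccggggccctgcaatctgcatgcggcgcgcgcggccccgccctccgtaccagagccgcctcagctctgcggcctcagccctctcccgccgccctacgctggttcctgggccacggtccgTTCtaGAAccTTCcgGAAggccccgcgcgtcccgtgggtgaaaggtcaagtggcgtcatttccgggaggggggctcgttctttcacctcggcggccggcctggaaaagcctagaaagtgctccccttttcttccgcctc

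Hspd1 and Hspe1 share this promoter. They are transcribed away from each other, and 285 of the 300 bases of the Hspe1 window lie inside a window of Hspd1 on the opposite strand. The run of 4 units is the same stretch for both, chr1:55088059-55088076. Read towards Hspe1 it is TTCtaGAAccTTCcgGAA, and read towards Hspd1 it is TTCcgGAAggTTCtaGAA, where it lies from base -144 to base -127. Runs of at least 4 units were found in 8 of the 32851 windows (0.0244%), among them these 2 windows and that of the Hsp90 co-chaperone Chordc1, which has 5 units. The second Hspd1 window held no run. In Bag3 a run of 2 units, GAAgtTTC, lay at the end of the window, from base 43 to base 50 after the start. The windows of Dnajb1 held no run of these letters.

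**Figure D1:**
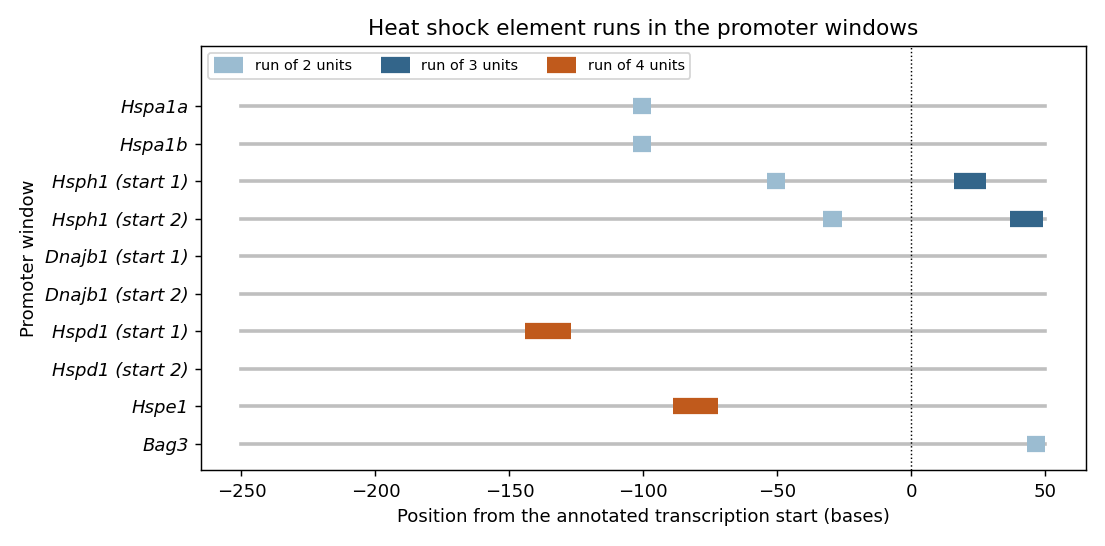
Runs of heat shock element units in the 10 promoter windows of 7 chaperone genes. The x axis is the distance in bases from the annotated transcription start (dotted line), each grey line is a window, each block is a run, and its colour gives the number of units. The runs of 4 units are in the windows of Hspd1 and Hspe1, and the windows of Dnajb1 hold none.

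The chaperone genes differed little between the 2 arrays. With psyllium, none of the 9 measured genes reached 1.5-fold in either direction. Over the 11090 genes past an intensity filter, 4.03% were at least 1.5-fold higher and 2.42% were at least 1.5-fold lower, 6.45% in all. At that share fewer than 1 of 9 genes would be as far apart, so the count of 0 is near the background and sets these genes apart from nothing. Their log2 differences, psyllium minus control, ran from -0.34 to 0.29 with a median of -0.01, against a median of -0.04 over all genes past the filter. On the psyllium array 4 of the 9 were higher and 5 lower. The filter kept genes that reached 69.5 on their brighter array, the median over genes, and all 9 lay above it on both arrays.

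**Figure D2:**
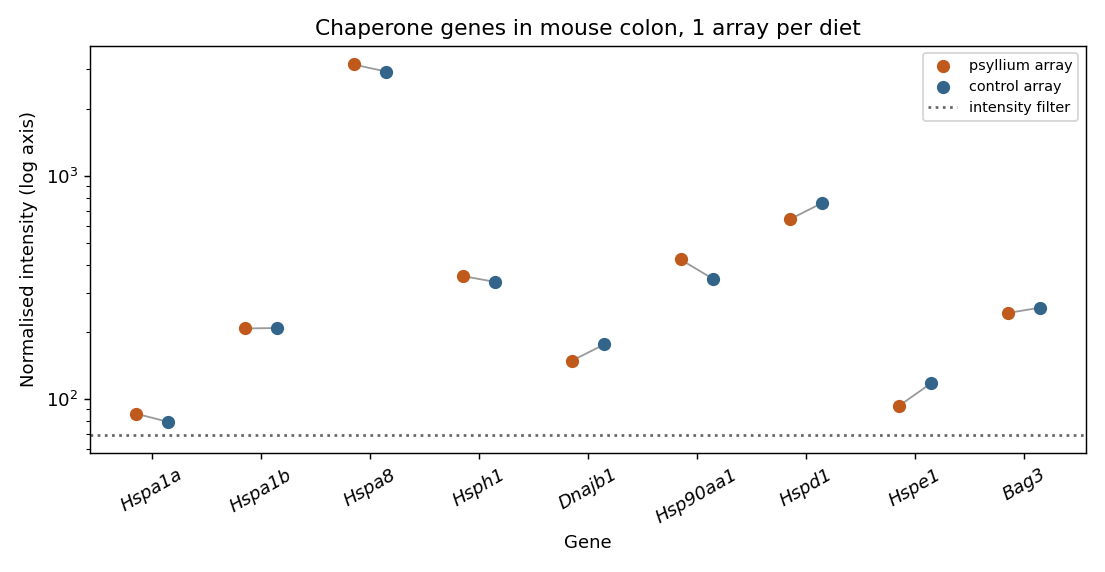
Normalised intensity of the 9 measured chaperone genes (log axis) on the psyllium array (left point of each gene) and the control array (right point), 1 array each, with the intensity filter of 69.5 as a dotted line. Every gene lies above the filter on both arrays and the points of a gene lie close together. Heights of different genes are not comparable, since each probe set binds with its own efficiency.

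The inducible Hsp70 genes were nearly equal on both arrays. Hspa1b, which is almost silent in many unstressed cells and strongly induced by heat, had an intensity of 207.5 on the psyllium array and 208.5 on the control array. The log2 difference was -0.01, and 97.5% of genes past the filter were at least as far from 0. Hspa1a, its neighbour, which encodes a near-identical protein, had 86.3 on the psyllium array and 79.2 on the control array, a log2 difference of 0.12 (1.09-fold). The inducible Hsp70 pair therefore gave 1 value slightly higher and 1 value level with the control. A further probe set names both genes and had 23.9 on the psyllium array and 32.2 on the control array. Both of its values lie below the filter, so its log2 difference of -0.43 rests on dim values. Probes of such close copies may bind either transcript, and the values of the 2 genes are uncertain to that extent.

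Hspa8, the constitutive Hsp70 of the cytosol (Hsc70), was covered by 5 probe sets that did not run one way. The brightest of the 4 that name it alone had 3159 on the psyllium array and 2933 on the control array, a log2 difference of 0.11. Another had 1210 on the psyllium array and 1247 on the control array, a difference of -0.04. The remaining 2 had the same values to every deposited digit, 806.8 on the psyllium array and 861.4 on the control array, and count as 1 measurement with a difference of -0.09. The probe set that names Hspa8 together with Snord14e, a small nucleolar RNA, had 729.2 on the psyllium array and 870.7 on the control array, a difference of -0.26. The sign for Hspa8 thus depends on the probe set, and no direction is given for it. For scale, in 329 genes with distinct probe sets past the filter the differences from 2 sets of the same gene lay a median of 0.18 apart, and in 10% of these genes at least 0.46 apart. Of the 9 chaperone genes, the differences of Hsp90aa1, Dnajb1, Hspd1 and Hspe1 were larger in size than that median gap and none was larger than 0.46.

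The partners of Hsp70 showed small differences in both directions. Hsph1, the Hsp110 protein that exchanges nucleotide on Hsp70 and helps it to dissolve aggregates, had 356.3 on the psyllium array and 335.4 on the control array (log2 difference 0.09). Bag3, an exchange factor that couples Hsp70 to small heat shock proteins and to selective autophagy, had 243.3 on the psyllium array and 257.2 on the control array (-0.08). Dnajb1, the stress-inducible J-domain protein that starts the Hsp70 cycle, had 148.6 on the psyllium array and 176.0 on the control array (-0.24, or 1.18-fold lower). Of genes past the filter, 17.5% had differences at least as negative as that of Dnajb1. Hsph1 and Bag3 lay between the quartiles of all genes, -0.18 and 0.13, and Dnajb1 lay just below it.

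Hsp90aa1 had the highest difference of the 9. This gene encodes the stress-inducible cytosolic Hsp90alpha, which acts with co-chaperones on signalling proteins. It had 422.7 on the psyllium array and 345.4 on the control array, a log2 difference of 0.29 (1.22-fold). Of all genes past the filter 12.1% had differences at least as high, so its place is within the common range. Its constitutive partner gene, Hsp90ab1, was named by no probe set in the annotation used here, so it has no value.

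The mitochondrial chaperonin genes were both lower on the psyllium array. Hspd1 encodes Hsp60, the barrel that folds imported proteins in the mitochondrial matrix, and Hspe1 encodes Hsp10, its lid. Hspd1 had 638.7 on the psyllium array and 757.1 on the control array, a log2 difference of -0.25 (1.19-fold lower). Hspe1 had 93.2 on the psyllium array and 118.1 on the control array, a difference of -0.34 (1.27-fold lower). No other of the 9 genes lay as far from 0. Of genes past the filter 17.3% had differences at least as negative as that of Hspd1, and 9.39% as that of Hspe1. The RefSeq gene table names 23 pseudogenes after Hspd1 and 7 after Hspe1, and whether their transcripts reach these probes was not tested.

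**Figure D3:**
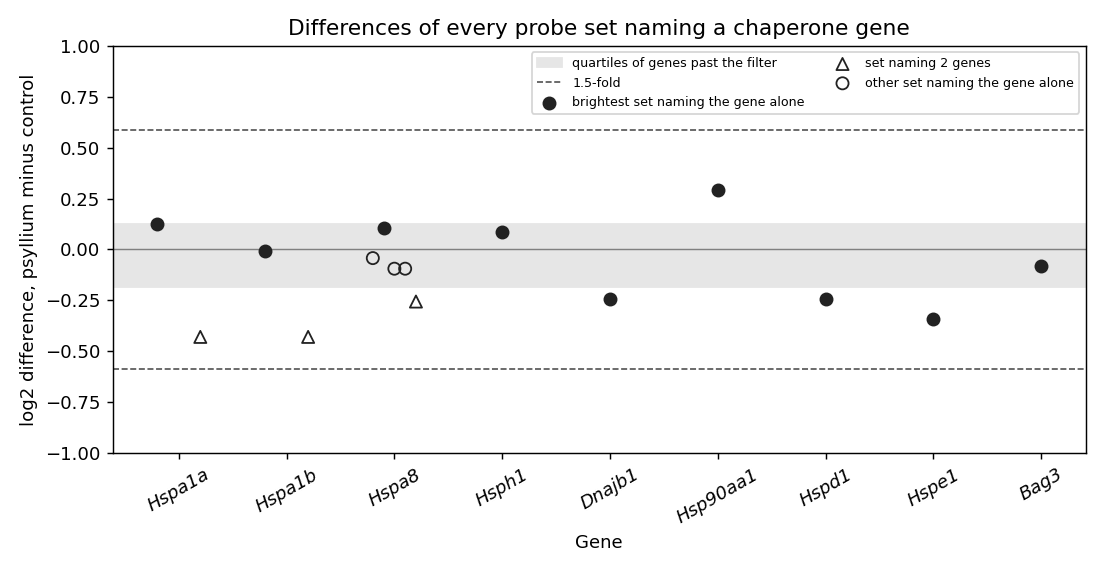
Log2 difference, psyllium minus control, of every probe set that names one of the 9 measured chaperone genes. Filled circles are the brightest set naming the gene alone, open circles other sets naming it alone, and triangles sets naming 2 genes (the set shared by Hspa1a and Hspa1b is drawn at both). The band spans the quartiles of all genes past the filter, -0.18 to 0.13, and every point lies between the dashed lines at 1.5-fold.

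The wider networks of these chaperones were similarly level. Of 8 other Hsp70 and Hsp110 family genes, none was past 1.5-fold. Hspa4, the broadly expressed Hsp110 protein, differed by 0.03 and its relative Hspa4l by 0.25. Beside 4.03% of all genes past the filter, 1 of 13 measured J-domain genes was at least 1.5-fold higher, and none was lower by as much. This was Dnajb5, at 109.6 on the psyllium array and 65.4 on the control array (1.68-fold). Its control value lies below the filter, so the size of that fold is uncertain. Among 8 measured exchange factors and other Hsp70 cofactors none was past 1.5-fold, with Bag1 at 0.16 and St13, which stabilises the client-bound state, at 0.01. Among 17 measured Hsp90 co-chaperones none was past 1.5-fold either, and their median was -0.06. The immunophilin Fkbp4 differed by -0.10 and Cacybp by -0.12.

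The cytosolic chaperonin TRiC, which folds actin and tubulin, also differed little. Its 8 subunits past the filter ran from -0.06 to 0.16, and the list median was -0.01. Tcp1 differed by 0.16 and Cct2 by -0.06. The 7 measured prefoldin and phosducin-like genes, which hand clients to TRiC, ran from -0.20 to 0.09, with Pfdn5 at 0.01 and Pdcl3 at 0.08. TRiC is the cytosolic counterpart of the mitochondrial chaperonin, whose genes differed by -0.25 and -0.34. The difference between these lists was not tested, as 1 array per diet allows no test.

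Other mitochondrial chaperones and proteases leaned the same way as Hspd1 and Hspe1. Of 10 measured genes 9 were lower on the psyllium array, none of them 1.5-fold, and their median was -0.13. Hspa9, the mitochondrial Hsp70, differed by -0.06, and Timm44, which anchors it at the import channel, by -0.12. Of all genes past the filter 6275 of 11090 also had negative differences. Pan-epithelial markers had a median of -0.26 on the same arrays, with 23 of 24 negative. The part of epithelial content in the chaperonin values was not tested, and in whole-tissue RNA fewer cells of a type and less RNA per cell cannot be told apart.

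Genes with the longer heat shock element runs were described in the same way. Past the filter 49 genes had a promoter window with a run of at least 3 units, Hsph1, Hspd1 and Hspe1 among them. None of the 49 was at least 1.5-fold higher, beside 3.74% of the 8722 genes past the filter with a window. At least 1.5-fold lower were 2 of 49, beside 2.40% of those genes. These 2 were Plscr4, a phospholipid scramblase family gene (1.79-fold), and the organic anion transporter Slco2b1 (1.55-fold), both named after their values were seen. Both counts are near the shares of all genes with a window and set the 49 apart from nothing. The median of the 49 was -0.08, against -0.04 for all genes with a window. Their quartiles were -0.24 and 0.08, against -0.18 and 0.12. This set was formed after the data had been seen, and it is given as a description.

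Of the heat shock factors, Hsf2 differed by 0.14, and Hsf1 was named by no probe set in the annotation used here. Hsbp1, which binds heat shock factor trimers, differed by 0.03. Of 6 measured genes in that list 3 were past the filter and none was past 1.5-fold. A list of 20 other genes linked to the heat response had 16 measured members, all past the filter. Most of the 16 also belong to other lists described here, such as Hsp90 co-chaperones and small heat shock genes. The list is therefore not a separate observation. Beside 4.03% of all genes past the filter, 4 of the 16 were at least 1.5-fold higher, and none was lower by as much. These were Serpinh1, the collagen chaperone Hsp47 (320.1 on the psyllium array and 168.4 on the control array, 1.90-fold) and 3 small heat shock genes. These were Hspb1, higher by 1.58-fold, Hspb8 by 1.64-fold and Cryab by 1.91-fold (1.59-fold with the mean of its 2 probe sets). The other 12 lay within 1.5-fold, from -0.23 (Sqstm1) to 0.33 (Dnajb4), and the list median was 0.18. The call on Hspb1 ended with the mean of its probe sets (1.45-fold) and with a pseudocount of 16 (1.49-fold).

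Among small heat shock genes 5 of 9 measured were at least 1.5-fold higher, with Hspb7 (1.92-fold) and Hspb6 (1.85-fold) besides those named above. The count was 4 of 9 under the same alternatives. Of the 9 genes 6 were past the filter, and these included the 5 called, beside 4.03% of all genes past the filter. Smooth muscle markers were higher too. All 18 had positive differences, 17 of them of at least 1.5-fold, with a median of 1.13, and their summed intensity was 35507 on the psyllium array and 14963 on the control array. Hspb6 belongs to both lists, and without it 16 of 17 smooth muscle markers were at least 1.5-fold higher, with a median of 1.19. Fibroblast and matrix markers had a median of 1.22, with 14 of 17 at least 1.5-fold higher, and a summed intensity of 17398 on the psyllium array and 6884 on the control array. Hspb6, Hspb7 and Cryab are abundant in muscle and Serpinh1 in collagen-producing cells, and the part of these cells in these values was not tested. In the same RNA the 9 chaperone genes had a median of -0.01.

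**Figure D4:**
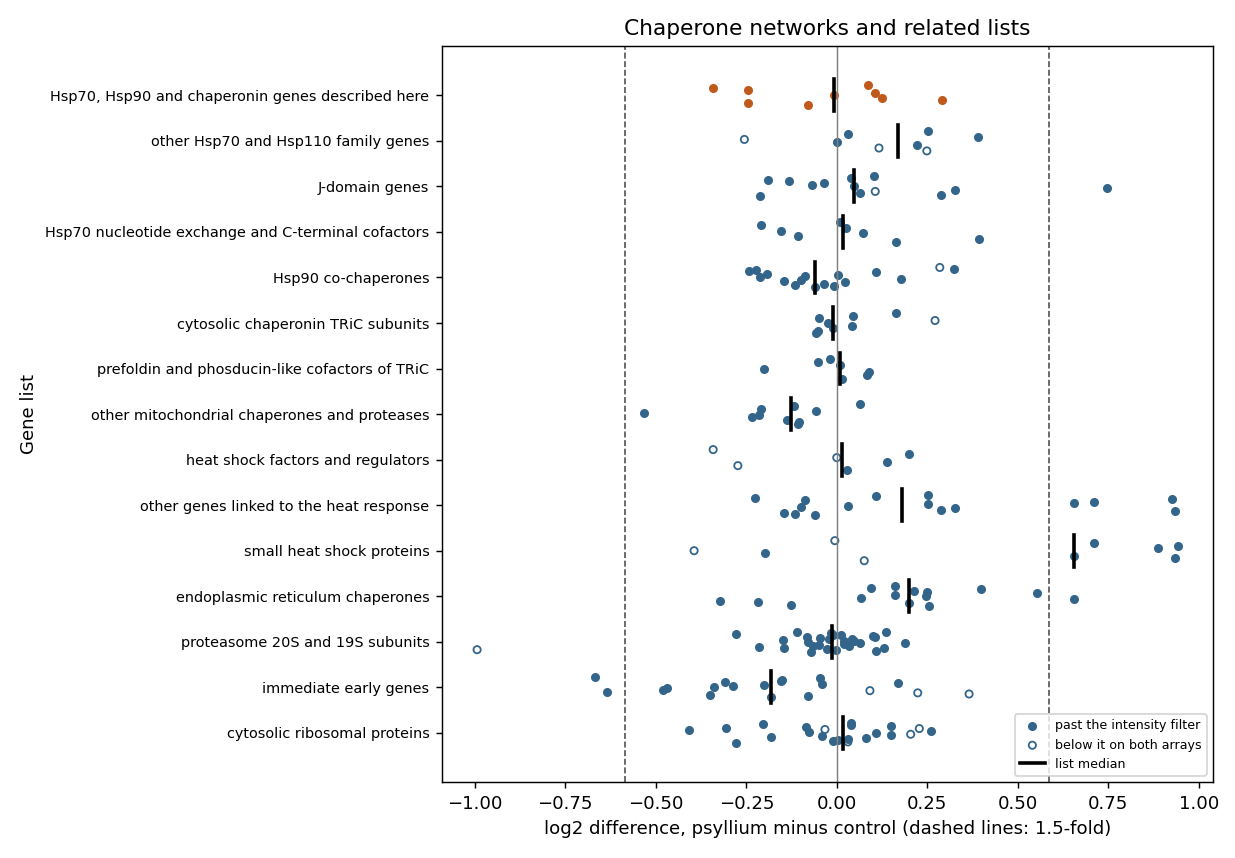
Log2 difference, psyllium minus control, of each measured gene in the list of 9 chaperone genes (top) and in 14 other lists, with list medians as black bars and 1.5-fold as dashed lines. Filled points are genes past the intensity filter. The 9 chaperone genes lie between -0.34 and 0.29, and 5 of the 9 small heat shock genes lie beyond 1.5-fold.

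Other stress and housekeeping lists gave the setting for these values. The endoplasmic reticulum has its own Hsp70 and Hsp90. Among 15 measured genes of that compartment 12 were higher, beside 4731 of 11090 genes past the filter, and the list median was 0.20. At least 1.5-fold higher was 1 of the 15, beside 4.03% of genes past the filter. That gene was Dnajc10, a disulfide reductase with a J domain, at 1402 on the psyllium array and 890.5 on the control array (1.57-fold). Proteasome subunits had a median of -0.01 over 30 genes, with Psma3 at 0.00 and Psmd7 at 0.14. The 1 subunit at least 1.5-fold lower, Psma5, lay below the filter on both arrays and is named after its value was seen. Over 22 ribosomal protein genes the median was 0.02, with Rpl4 at -0.04 and Rps6 at 0.04. Of 19 measured immediate early genes 15 were lower, beside 6275 of 11090 genes past the filter, and the list median was -0.18. Past the filter were 16 of the 19, with a median of -0.24. Those below it, Fosb, Egr2 and Egr3, were all higher on the psyllium array. Zfp36 (1.59-fold) and Fos (1.55-fold) were lower by at least 1.5-fold, beside 2.42% of genes past the filter. With a pseudocount of 16 Fos was 1.46-fold lower.

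The tissue label was checked on colon markers. Of 15 colon and epithelial identity genes 14 were measured and 13 were past the filter. Their median was -0.18, none was past 1.5-fold, and their summed intensity was 43137 on the psyllium array and 45643 on the control array. Absorptive colonocyte markers had a median of -0.70, with 9 of 15 at least 1.5-fold lower, beside 2.42% of all genes past the filter. Their summed intensity was 24481 on the psyllium array and 35800 on the control array. T and NK cell markers had a median of -0.61, with 6 of 12 at least 1.5-fold lower. Only 6 of these 12 were past the filter, and 4 of those 6 were at least 1.5-fold lower. Cd8a and Gzma, also counted as lower, lay below the filter on both arrays. Macrophage markers had a median of 0.43, with 2 of 11 at least 1.5-fold higher, beside 4.03% of all genes past the filter. Among skeletal muscle markers, which would show adjacent tissue, 3 of 10 were past the filter, and all 3 were higher on the psyllium array. Acta1 had 288.9 on the psyllium array and 96.2 on the control array, a log2 difference of 1.59. The differences of Ckm and Tnnt3 were 0.80 and 0.31. Actin genes have close copies, so the value of Acta1 is uncertain. Medians nearer to 0 were those of goblet cell (0.13), endothelial (0.03), enteric neuron and glia (-0.02), B and plasma cell (-0.12) and pancreas and adipose markers (0.22). The smooth muscle, fibroblast, absorptive colonocyte, T and NK cell and macrophage medians lay farther from 0 than any of the 9 chaperone genes, and the part of tissue make-up in the chaperone values was not tested.

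**Figure D5:**
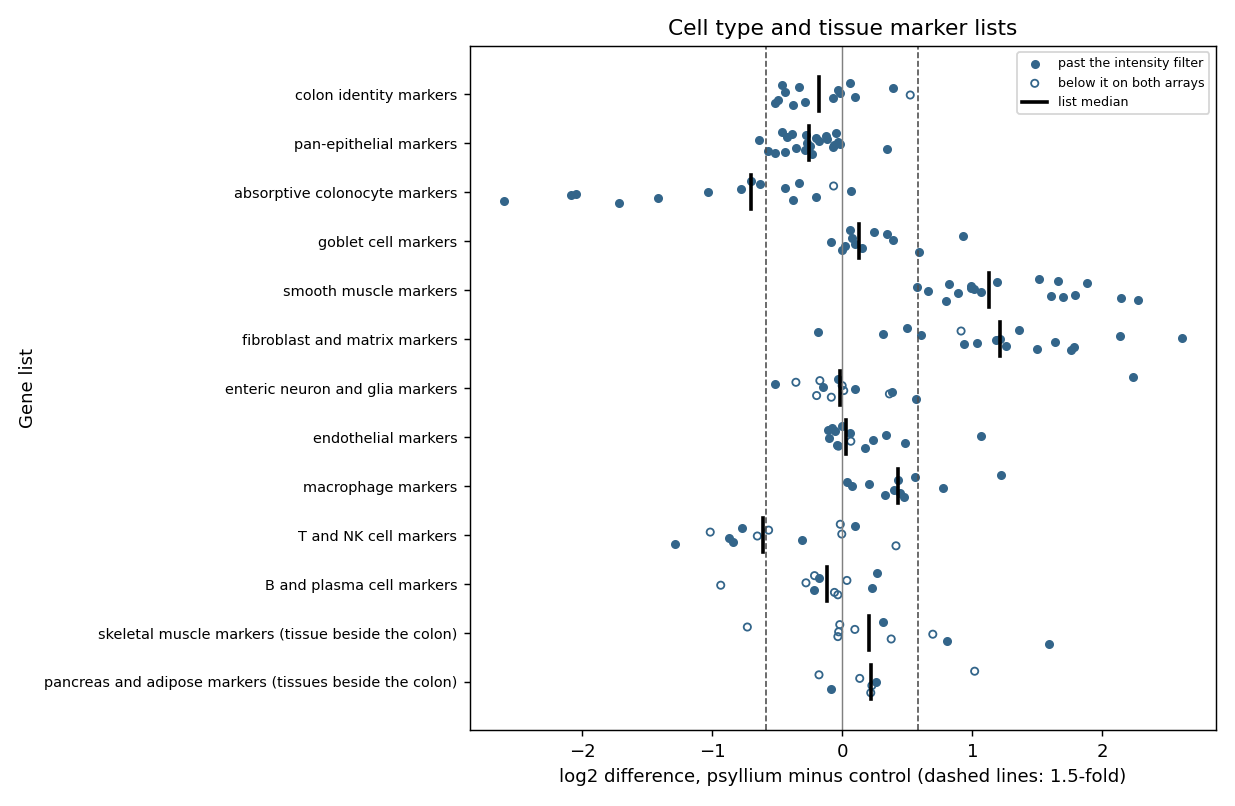
Log2 difference, psyllium minus control, of each measured marker gene in 13 lists of cell types and neighbouring tissues, drawn as in the plot of chaperone networks. Smooth muscle and fibroblast lists lie to the right, with medians of 1.13 and 1.22, and absorptive colonocyte markers lie to the left, with a median of -0.70.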

How the data were processed

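Colon RNA of mice fed psyllium or control diet was labelled with biotin and hybridised to 1 array per diet. Values were deposited as normalised intensities, not in log form, for 41345 probe sets, with array medians of 49.8 (psyllium) and 48.9 (control). RMA and Affymetrix Expression Console are named in the submitters' processing notes, without versions. Whether the intensities are the antilogarithm of RMA output, and the genome build, are not given in the sources used here. If the arrays were equalised, differences are relative to the bulk of transcripts. The number of arrays limits the precision.

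Intensities were converted to log2 with no pseudocount, and a difference is psyllium minus control. Of the probe sets, 23521 name 1 gene in GEO's platform annotation, 1814 several and 16010 none here. Symbols were updated by gene number in RefSeq's GRCm38.p6 table, which held 23328 of the 23521. The brightest probe set of a gene was used, and genes past the filter had a brighter array at or above 69.5. The gene and marker lists hold genes from textbook knowledge, matched also through synonyms. The text names all 9 measured chaperone genes and, per list, the up to 4 genes past the filter that differed most and by at least 1.5-fold, otherwise the 2 brightest. Other names belong to a sequence result, to a count of 5 or fewer, to the ends of a list's range or to the marker check. The members and lists were chosen with earlier results of these data known.

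With 1 array per diet no test was made. The thresholding was tried on simulated data for the 22180 genes of this comparison. Of 200 genes shifted by 1.5 on the log2 scale, 100% of those raised and 100% of those lowered passed 1.5-fold. That shift lies well beyond the threshold, so this outcome was nearly fixed in advance. Genes given no shift kept the real differences of these arrays, shuffled among probe sets of similar level. Of those past the filter 7.97% passed 1.5-fold, and this is not a rate of false calls. Alternatives were the mean of probe sets, the filter, scaling, the intensity trend, a pseudocount of 16 and the fold threshold. Python 3.11.15, pandas 2.3.3 and statsmodels 0.14.6 were used.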

Additional observations from a re-analysis of the deposited data

How the results depend on the processing

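None of the 9 chaperone genes passed 1.5-fold under any of the 7 alternatives in probe sets, filter, scaling, trend and pseudocount, or with other probe sets of Hspa8. All 9 lie above the filter on both arrays, so the 2 filter alternatives repeat their values, and the mean of probe sets can move Hspa8 alone. The largest difference in size was 0.36, that of Hsp90aa1. At the lower fold threshold tried, which Hspe1 alone passed, the count of lower genes was 1, against 0 at 1.5-fold. The median of the 9 ran from -0.03 to 0.05. Of the 9 genes 7 kept their sign throughout, and Hspa1b and Hspa8 did not. Hspa8 ran from -0.26 to 0.18. Its other probe sets were an alternative chosen after seeing the data. The other lists held 8 genes at least 1.5-fold higher, 7 to 9 over the alternatives, and 3 lower, 2 to 3 over them. The small heat shock median of 0.66 was 0.54 with the mean of probe sets, 0.57 with a pseudocount of 16, and 0.89 over genes past the filter on both arrays. The T and NK cell median of -0.61 was -0.43 with the pseudocount, -0.80 over genes past the filter on the brighter array and -0.86 over those past it on both. The skeletal muscle median of 0.21 over 10 genes was 0.80 over the 3 genes past the filter on the brighter array. Over those past it on both arrays it was 1.20. No paired analysis was possible because each diet has 1 array, and for the same reason no array could be left out.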
